A study of Mus musculus with 24 samples.

Results

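The 40 genes described here encode proteins that copy DNA and carry out mitosis, and their transcripts are used as markers of dividing cells. A probe was taken as a member's when its gene name on the array was the member's symbol, and where a gene had several probes the brightest over all arrays stood for it. All 40 were found among the 34797 gene names on the array, 28 with 1 probe and 12 with more. By role, 10 supply DNA replication (Mcm2 to Mcm7, Pcna, Rrm1, Rrm2 and Tyms), 12 are cyclins, kinases and the transcription factor that drives them, 2 work with the anaphase-promoting complex, 7 sit on chromosomes and centromeres, and 9 build the spindle and divide the cell.

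Transcripts were measured on 24 one-colour arrays of mammary gland RNA from female mice, in 8 groups of 3. BALB/c is an inbred mouse strain widely kept in laboratories, and SPRET/EiJ was inbred from wild mice of the species Mus spretus. The LDIR groups received 10 cGy of X-rays over the whole body at 8 to 9 weeks of age, and the sham groups did not. BALB/c glands were examined 2, 4 and 8 weeks later and SPRET/EiJ glands 4 weeks later, so the groups are BALB/c sham and BALB/c LDIR at each of 2, 4 and 8 weeks and SPRET/EiJ sham and SPRET/EiJ LDIR at 4 weeks. Replicates carry the letters A, B and C, and nothing in the labels says what a shared letter means or which mouse each sample came from. The p-values below therefore measure only the spread between these samples.

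Cells that enter the cycle first load the Mcm2 to Mcm7 helicase and raise the supply of deoxynucleotides for S phase. They then build up cyclins, mitotic kinases, centromere proteins and spindle motors for G2 phase and mitosis. In the resting adult mammary gland most epithelial cells are at rest, and division follows puberty and the ovarian cycle, while the surrounding fat pad holds mainly adipocytes, stroma and, in places, a lymph node. In whole tissue, fewer cells of a type and less RNA per cell cannot be told apart.

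A level is given throughout as the log2 of a probe's processed signal minus the 75th percentile of its array, so that 0 is the brightness of that percentile and a difference of 1 is 2-fold. Probes differ in how brightly they bind, so a level was compared between groups for 1 gene and never between genes. Between 58.2% and 73.4% of the spots were well above background on each array. Of the members, 31 were well above background on all 24 arrays and 39 on at least 3, with Cenpf on 2, Ttk on 3, Aurkb on 7 and Kif2c on 8.

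Markers of luminal epithelium (8 of 8), basal epithelium (6 of 6) and white adipocytes (7 of 7) were well above background in every group, which fits the labelled tissue. Arrays BALB/c sham 8 weeks A, BALB/c LDIR 8 weeks B and SPRET/EiJ LDIR A stood apart. Their mean level of B lymphocyte markers was 2.94 to 3.30 and of T lymphocyte markers 4.14 to 4.65, against -3.22 to -1.26 and -2.12 to -0.095 on the other 21 arrays. White adipocyte markers were lower on these 3 arrays, at 5.44 to 6.08 against 6.73 to 7.68. Comparisons of the members that use them are given with and without them. Counts of other cell cycle genes and the test of the LDIR difference by week are given with them only.

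The starts of these genes share short sequences that are not part of how the members were chosen. Promoters of 300 bases, 250 before and 50 after the start, were held for 34 of the 40 in the RefSeq table on GRCm38.p6, and Kif20a, Foxm1, Aurkb, Ccna2, Tpx2 and Mcm4 had no entry. The letters CCAAT, the core that the factor NF-Y binds, were searched on both strands together with TTTGAA, the core of the element through which the DREAM and MuvB complexes act, and with TTTCCCGC, TTTGGCGC and TTTCGCGC, which are forms of an E2F site. CCAAT stood in 29 of the 34 member promoters (85.3%) and in 37.9% of the promoters of all 27025 symbols. At least 2 copies stood in 19 (55.9%), against 12.2% of all. TTTGAA stood in 20 (58.8%) against 18.1%, but in only 1 of the 9 held replication promoters, while 4 of those 9 held an E2F form. The 5 promoters with E2F letters (14.7% against 1.91%) belonged to Mcm3, Mcm5, Mcm6, Mcm7 and Cdk1. In 2 member promoters matches of different motifs overlapped. Other cell cycle genes with an entry held CCAAT in 37, TTTGAA in 29 and E2F letters in 17 of 67.

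The promoters printed here belong to 3 genes of G2 phase and mitosis that were higher at 8 weeks in sham BALB/c glands (Plk1, Cdc20 and Mki67), to Birc5, which was also higher and holds none of the letters, and to Hmmr and Pcna, which were not past the thresholds there. Capitals mark the matches on either strand, so that ATTGG is CCAAT and TTCAAA is TTTGAA read from the other strand. In order, they lie at chr7:122159185-122159484 on the + strand, chr4:118437294-118437593 on the - strand, chr7:135716330-135716629 on the - strand, chr11:117848987-117849286 on the + strand, chr11:40733388-40733687 on the - strand and chr2:132253131-132253430 on the - strand, and each is written 5′ to 3′ along its gene.
Plk1: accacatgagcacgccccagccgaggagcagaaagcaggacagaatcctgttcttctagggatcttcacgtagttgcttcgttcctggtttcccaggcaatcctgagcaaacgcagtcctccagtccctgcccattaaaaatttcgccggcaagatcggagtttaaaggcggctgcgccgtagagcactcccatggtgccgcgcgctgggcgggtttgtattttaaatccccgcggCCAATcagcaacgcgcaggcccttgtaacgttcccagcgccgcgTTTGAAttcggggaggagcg
Cdc20: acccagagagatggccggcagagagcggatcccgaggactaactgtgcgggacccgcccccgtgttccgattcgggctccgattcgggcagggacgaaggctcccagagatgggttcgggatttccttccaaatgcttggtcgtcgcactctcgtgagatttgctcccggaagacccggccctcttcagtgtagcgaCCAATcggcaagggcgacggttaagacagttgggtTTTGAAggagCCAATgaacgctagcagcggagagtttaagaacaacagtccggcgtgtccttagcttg
Mki67: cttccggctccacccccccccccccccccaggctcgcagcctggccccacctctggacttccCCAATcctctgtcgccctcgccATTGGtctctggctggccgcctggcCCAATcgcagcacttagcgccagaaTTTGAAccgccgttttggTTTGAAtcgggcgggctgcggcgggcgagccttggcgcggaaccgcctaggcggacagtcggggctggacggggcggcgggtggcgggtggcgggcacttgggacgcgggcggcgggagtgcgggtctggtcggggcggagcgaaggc
Birc5: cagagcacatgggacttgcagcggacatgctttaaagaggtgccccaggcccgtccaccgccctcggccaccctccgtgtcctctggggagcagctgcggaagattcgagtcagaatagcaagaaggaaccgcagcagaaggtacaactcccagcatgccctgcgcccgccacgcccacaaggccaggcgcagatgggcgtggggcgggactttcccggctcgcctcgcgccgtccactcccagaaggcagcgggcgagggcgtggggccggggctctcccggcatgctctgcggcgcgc
Hmmr: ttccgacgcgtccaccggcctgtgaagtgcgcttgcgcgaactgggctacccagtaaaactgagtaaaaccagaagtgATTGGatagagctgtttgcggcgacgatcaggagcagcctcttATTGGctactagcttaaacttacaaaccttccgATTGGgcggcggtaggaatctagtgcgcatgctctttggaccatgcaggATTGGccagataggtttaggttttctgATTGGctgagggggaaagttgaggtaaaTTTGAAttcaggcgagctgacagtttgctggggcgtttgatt
Pcna: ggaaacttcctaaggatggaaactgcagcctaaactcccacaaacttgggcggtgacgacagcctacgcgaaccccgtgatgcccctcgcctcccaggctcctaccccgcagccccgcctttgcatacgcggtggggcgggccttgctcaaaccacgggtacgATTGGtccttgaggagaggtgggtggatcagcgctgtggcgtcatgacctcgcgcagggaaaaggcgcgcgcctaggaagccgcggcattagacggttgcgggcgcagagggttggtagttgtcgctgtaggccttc
A match is a description of the letters and not of a bound site.

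The mean level over the 40 genes was highest in sham BALB/c glands at 8 weeks. There it was -0.20 ± 0.65 (SD, n = 3), with -0.37, -0.75 and 0.53 on arrays A, B and C. LDIR glands of the same week had -0.87 ± 0.81 (SD, n = 3), with -1.76, -0.71 and -0.16. Without the arrays rich in lymphocyte markers these means were -0.11 in sham and -0.96 in LDIR glands (n = 2 each). Mcm2 has no level on LDIR array C of 8 weeks, where its spot was marked as an outlier, so 39 members enter that mean and the Mcm2 tests of that group use 2 arrays. Array A of that group lay among the arrays of earlier weeks, and B and C lay among the sham arrays of 8 weeks.

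At 2 weeks the mean was -1.72 ± 0.25 in sham and -1.99 ± 0.27 in LDIR glands (SD, n = 3 each). At 4 weeks it was -2.03 ± 0.51 and -1.99 ± 0.41 (SD, n = 3 each). SPRET/EiJ glands had -2.48 ± 0.28 in sham and -1.88 ± 0.83 in LDIR (SD, n = 3 each), the latter -2.33 without array A. These 6 groups overlapped each other, apart from SPRET/EiJ sham, whose highest array (-2.25) lay below every BALB/c array of 2 weeks.

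**Figure D1:**
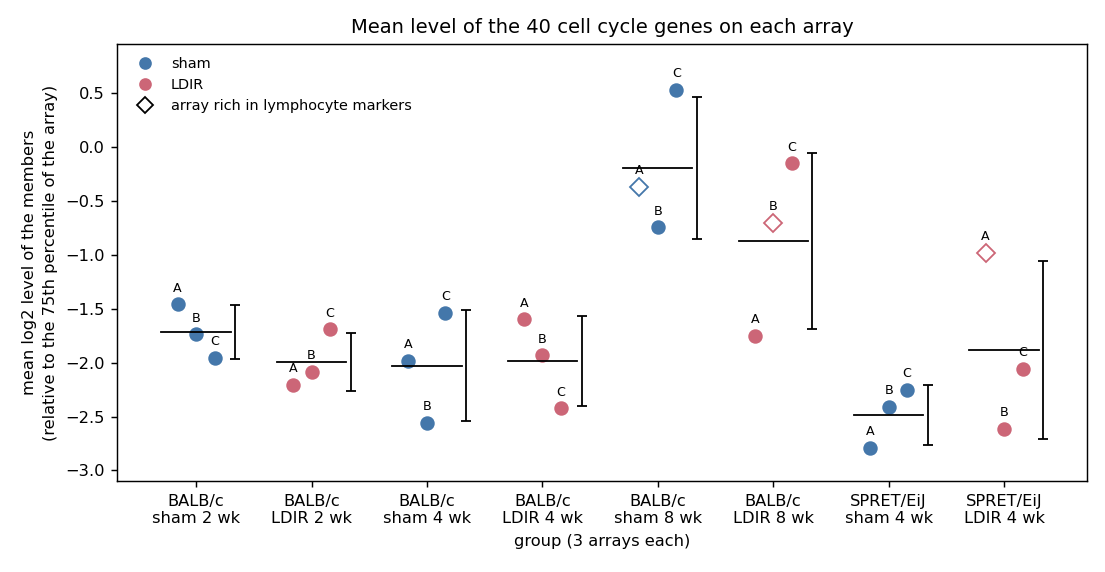
Mean log2 level of the 40 cell cycle genes on each of the 24 arrays (y axis, relative to the 75th percentile of the array), by group (x axis). Points are arrays with their replicate letters, open diamonds the 3 arrays rich in lymphocyte markers, lines group means and bars 1 SD. All 3 sham arrays of 8 weeks lie above every array of 2 and 4 weeks in BALB/c, and LDIR array A of 8 weeks does not.

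The first comparison asks how the genes differ between weeks in glands that were not irradiated. The labels give no stage of the ovarian cycle, so its part in this difference was not tested. From 4 to 8 weeks in sham BALB/c glands, 36 of the 40 were higher and none was lower. The rule was a change of more than 1.5-fold at an unadjusted p under 0.05 (limma, 3 arrays against 3). By the same rule 5.33% of all 55681 probes were higher and 4693 were lower. The median difference of the members was 1.91 on the log2 scale, against 0.05 over all probes. In 38 members the arrays of the 2 groups did not overlap and 8 weeks was higher, which held for 9.65% of all probes. With Benjamini-Hochberg adjustment over all probes none passed 0.05 in the fit of these 6 arrays, and adjusted p of the 36 ran from 0.0951 to 0.32. In a fit of all 24 arrays, which share an estimate of the spread, 25 members passed adjusted p 0.05, against 6.3% of all probes.

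In what follows the levels of arrays A, B and C are given first at 4 and then at 8 weeks. Among replication genes 7 of 10 were higher, with a median log2 difference of 1.26. All 6 subunits of the Mcm helicase, which unwinds DNA at the fork, were among them. Mcm5 stood at 0.047, -1.88 and -1.42 at 4 weeks and 1.26, 0.75 and 1.99 at 8 weeks. Mcm6 stood at 2.27, 0.72 and 1.27, then 2.58, 2.87 and 4.24, and Mcm2 at -0.34, -1.38 and -1.17, then 0.63, 0.037 and 1.11. In each the lowest array of 8 weeks lay above the highest of 4 weeks, and the differences were 2.42 ± 0.59 (SE), 1.81 ± 0.59 and 1.56 ± 0.41. Mcm3 had 1.45, 0.81 and 1.004 at 4 weeks and 2.66, 1.85 and 3.19 at 8 weeks. Mcm4 had 1.75, 1.35 and 1.32, then 2.51, 1.96 and 3.03, and Mcm7 1.92, 1.87 and 1.51, then 2.49, 2.56 and 3.37. These groups did not overlap either, and the differences were smaller, from 1.03 for Mcm4 to 1.49 for Mcm3.

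Rrm2, the subunit of ribonucleotide reductase that is made for S phase, rose from -0.56, -0.71 and -0.60 to 0.96, 0.22 and 1.81, by 1.62 ± 0.42 (SE). Its partner Rrm1 had 1.01, 0.56 and 0.74, then 1.26, 1.25 and 2.15 and did not pass. Pcna, the sliding clamp of the DNA polymerases, had 3.18, 2.93 and 2.76, then 3.47, 3.39 and 4.26 and did not pass either. In both every array of 8 weeks lay above every array of 4 weeks, with differences of 0.79 ± 0.33 and 0.75 ± 0.32. Tyms, which makes thymidylate, had -1.40, -1.57 and -0.72 at 4 weeks and -1.41, -1.62 and -1.60 at 8 weeks, a difference of -0.32 ± 0.29 in the other direction that did not pass.

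All 12 cyclins and kinases with their transcription factor were higher at 8 weeks, with a median log2 difference of 2.29. Ccna2, the cyclin of S and G2 phase, had -2.09, -3.11 and -1.11 at 4 weeks and -0.48, -0.28 and 1.31 at 8 weeks. The mitotic cyclin Ccnb1 had -3.23, -3.55 and -1.85, then -0.96, -0.95 and 0.31, and Ccnb2 -1.77, -1.89 and -0.0031, then 0.76, 0.66 and 1.84. The 3 cyclins rose by 2.28 ± 0.69 (SE), 2.35 ± 0.58 and 2.31 ± 0.62, with no overlap and with array C the highest of each week. Cdk1, the kinase that these cyclins switch on, had -2.50, -2.67 and -1.89, then -1.57, -0.99 and 0.37. Foxm1, which drives transcription of G2 and mitosis genes, had -2.65, -3.60 and -2.14, then -1.86, -1.85 and -0.80. Their differences were 1.62 ± 0.54 and 1.30 ± 0.49, again without overlap.

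Plk1, a kinase that starts mitosis and matures centrosomes, had -1.49, -1.84 and -0.95 at 4 weeks and 0.48, -0.11 and 1.20 at 8 weeks. Aurka, the centrosome kinase, had -1.33, -1.51 and -0.83, then -0.22, -0.26 and 0.73. Melk, a kinase found in dividing progenitor cells, had -3.75, -4.64 and -2.90, then -2.53, -1.88 and -0.24. The groups of all 3 were apart, with array B lowest at 4 weeks. Bub1 and Bub1b, checkpoint proteins that hold chromosomes back until they are attached, were among the members with the largest differences. Bub1 had -4.97, -6.68 and -4.71, then -2.91, -3.17 and -1.49, a difference of 2.93 ± 0.69 (SE, adjusted p = 0.168). Bub1b had -4.52, -5.22 and -4.30, then -1.52, -2.31 and -1.0001, a difference of 3.07 ± 0.43 with the lowest adjusted p of any member (0.0951, and 0.00263 in the fit of all arrays).

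Aurkb, the kinase of the chromosomal passenger complex, had the largest fitted difference of the 40, 3.17 ± 0.74 (SE, adjusted p = 0.167). At 8 weeks its levels were -3.83, -4.71 and -2.80, while at 4 weeks they were -7.65, -7.63 and -5.59 and not well above background on any array, so its signal was at least 4.24-fold higher. The checkpoint kinase Ttk had -3.95, -5.69 and -3.60 at 8 weeks, with B not well above background, and was below it on every array of 4 weeks (-6.74, -7.63 and -5.73). It was at least 2.74-fold higher.

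Both partners of the anaphase-promoting complex, the ligase that ends mitosis, were higher at 8 weeks. Cdc20, its activator, rose from -0.90, -1.39 and 0.27 to 1.05, 1.03 and 2.13, by 2.07 ± 0.54 (SE). Ube2c, its ubiquitin-conjugating enzyme, rose from -1.48, -1.78 and -0.95 to -0.23, -0.25 and 0.84, by 1.53 ± 0.40. Neither gene's groups overlapped.

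All 7 chromosome and centromere genes were higher, with a median log2 difference of 2.07. Mki67, whose protein coats mitotic chromosomes and is the Ki-67 marker of pathology, had -0.076, -0.46 and 0.82 at 4 weeks and 1.66, 0.99 and 2.79 at 8 weeks. Top2a, the topoisomerase that untangles chromosomes, had -3.22, -4.96 and -2.92, then -0.89, -1.70 and 0.20. Both were higher on every array of 8 weeks, by 1.72 ± 0.56 (SE) and 2.90 ± 0.71. Birc5, or survivin, had -0.41, -1.01 and 0.58, then 1.71, 1.40 and 2.71. Cdca8, or borealin, which joins survivin and Aurkb in the passenger complex, had -0.90, -1.16 and -0.36, then 0.78, 0.80 and 2.24. These genes again separated the weeks, by 2.22 ± 0.53 and 2.08 ± 0.48.

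Cenpa, the histone H3 variant of centromeres, had -1.98, -2.18 and -1.23, then 0.23, -0.23 and 0.21, a difference of 1.86 ± 0.33 (SE). The kinetochore motor Cenpe had -1.85, -2.38 and -0.66, then -0.26, -0.57 and 0.67, a difference of 1.58 ± 0.55. Cenpf, a large kinetochore protein, had -4.23, -6.57 and -5.76 at 8 weeks with B not well above background, and was below it on all arrays of 4 weeks (-7.68, -7.50 and -7.58). Its signal was at least 1.27-fold higher at 8 weeks, and none of the 3 genes had overlapping groups.

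Among spindle and cytokinesis genes 8 of 9 were higher, with a median log2 difference of 2.12. Kif11, the motor that pushes spindle poles apart, had -4.89, -5.99 and -4.72 at 4 weeks and -3.35, -3.95 and -1.95 at 8 weeks. Kif20a and Kif23 are motors of the midzone where the cell divides. Kif20a had -2.91, -2.83 and -1.87, then -1.23, -1.54 and -0.14, and Kif23 -3.20, -3.69 and -2.78, then -1.23, -2.32 and -1.08. The 3 motors rose by 2.12 ± 0.61 (SE), 1.57 ± 0.48 and 1.68 ± 0.43. Kif2c, which takes microtubules apart at centromeres, had -4.02, -4.45 and -3.18 at 8 weeks and was not well above background at 4 weeks (-6.69, -7.63 and -5.94), at least 3.96-fold higher.

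Prc1, which bundles midzone microtubules, had -2.20, -3.14 and -1.27, then -0.82, -0.44 and 1.05. Nusap1, a spindle protein that binds microtubules and chromatin, had -3.16, -3.60 and -2.32, then -0.89, -0.94 and 0.36. Tpx2, which activates Aurka on the spindle, had -3.63, -3.99 and -2.65, then -1.28, -1.61 and -0.24. Their differences were 2.13 ± 0.67 (SE), 2.54 ± 0.50 and 2.38 ± 0.51, and no array of 4 weeks reached the lowest of 8 weeks. Racgap1, which organises the cleavage furrow, had -1.17, -1.50 and -0.79, then 0.57, -0.48 and 0.65, a difference of 1.40 ± 0.39. Hmmr, a spindle protein and hyaluronan receptor, had 0.45, 0.082 and -0.042, then -0.28, -0.81 and 0.13, which overlapped, and a difference of -0.48 ± 0.32 that did not pass.

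**Figure D2:**
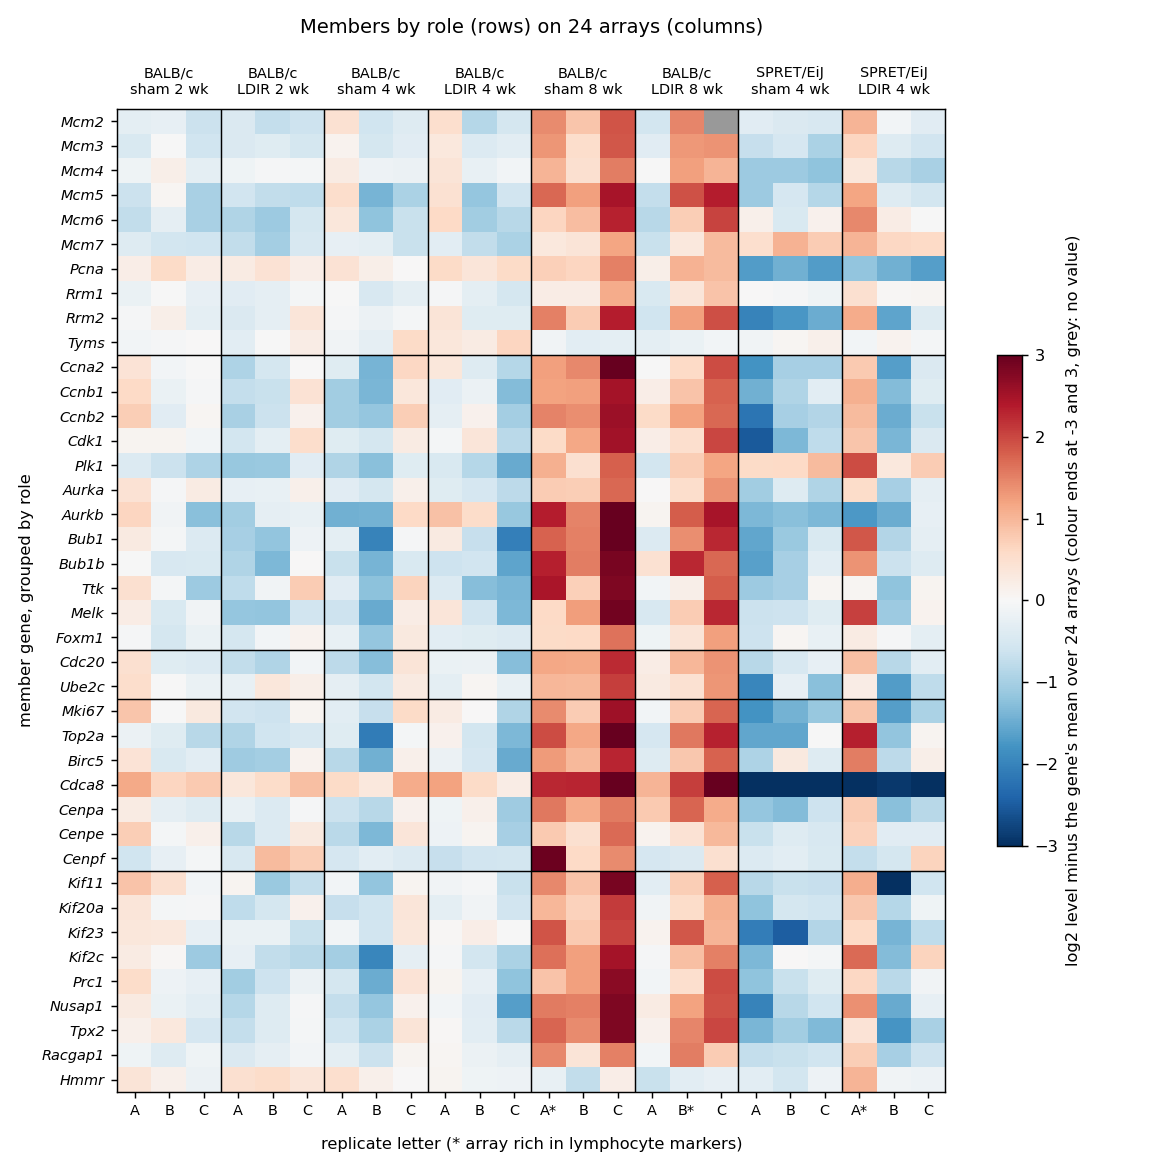
Log2 level of each member (rows, grouped by role) minus that gene's mean over the 24 arrays, on every array (columns, 3 per group in the order A, B, C). The red columns are the 3 sham arrays of 8 weeks, LDIR arrays B and C of 8 weeks and, more weakly, SPRET/EiJ LDIR array A; Tyms, Hmmr, Pcna and Rrm1 show less of it, and Cdca8 is dark blue on all SPRET/EiJ arrays.

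The difference between weeks did not rest on the array rich in lymphocyte markers: without it 38 members were higher, against 6.37% of all probes. The median was then 2.01, against -0.21 over all probes. Other lists of tissue markers did move with the difference between weeks. White adipocyte markers (7 genes) had mean levels of 7.23 to 7.54 at 4 weeks and 6.08 to 6.89 at 8 weeks, brown adipocyte markers (4) 0.018 to 0.96 and -2.79 to -0.83, and skeletal muscle markers (5) -3.73 to -0.081 and 0.76 to 2.79. Basal epithelial markers (6) were 2.26 to 2.63 at 4 weeks and 1.92 to 3.92 at 8 weeks, where arrays B and C had 3.58 and 3.92. Luminal epithelial markers (8) were 2.92 to 3.95 and 3.18 to 4.60, milk proteins (6) -4.24 to -3.53 and -3.85 to 1.49, macrophage markers (5) 0.52 to 1.46 and 1.30 to 1.97, fibroblast markers (5) 4.51 to 5.21 and 4.04 to 5.70, endothelial markers (5) 1.69 to 1.93 and 1.41 to 1.77, and erythrocyte markers (6) 2.88 to 3.40 and 2.27 to 5.01. Without sham array A of 8 weeks, luminal epithelial markers were 4.15 to 4.60 and macrophage markers 1.89 to 1.97. Fibroblast markers were then 5.27 to 5.70, erythrocyte markers 4.12 to 5.01 and milk proteins -3.30 to 1.49. Each of these lists then lay above its range of 4 weeks, while endothelial markers (1.62 to 1.77) still overlapped. The part of the marker lists in the difference of the cell cycle genes was not tested.

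Slides also differed between the weeks. Sham arrays A and B of 4 weeks were on slide 1, and array C was on slide 2 with the 3 sham arrays of 8 weeks. Within slide 2, the 3 arrays of 8 weeks against that 1 array gave a median of 1.31, with 38 members above 0, and with slide as a block 7 members passed the thresholds.

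The difference between the same weeks in irradiated glands was of smaller size, and the test of whether the LDIR difference varies with the week is given further on. This comparison of LDIR glands, added after the values were seen, had 16 members higher and 1 lower past the thresholds, against 3.79% higher and 18% lower of all probes. The median difference was 1.11 on the log2 scale, against -0.24 over all probes. Of the replication genes none was higher and 1 was lower, whereas 7 of the 12 cyclins and kinases, both partners of the anaphase-promoting complex, 3 of the 7 chromosome genes and 4 of the 9 spindle genes were higher. No member passed adjusted p 0.05, where 296 probes did.

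Bub1b had -4.47, -4.40 and -5.41 in LDIR glands of 4 weeks and -3.38, -1.57 and -2.12 of 8 weeks, the largest difference past the thresholds (2.40 ± 0.52, SE, adjusted p = 0.0787). Bub1 had -4.42, -5.37 and -6.74, then -5.10, -3.29 and -2.42 and, at 1.91 ± 0.83, did not pass. Nusap1 had -2.53, -2.78 and -4.10, then -2.20, -1.24 and -0.53, a difference of 1.81 ± 0.56 (adjusted p = 0.134). In Bub1b and Nusap1 the weeks did not overlap, while Bub1 overlapped through array A of 8 weeks. Ccnb1 had -2.52, -2.37 and -3.49, then -1.98, -1.32 and -0.41, and Ccnb2 -1.01, -0.60 and -1.76, then -0.15, 0.47 and 0.98. Plk1 had -1.05, -1.44 and -2.09, then -1.14, 0.14 and 0.59, Aurka -1.34, -1.50 and -1.77, then -0.97, -0.45 and 0.35, and Foxm1 -2.76, -2.79 and -2.85, then -2.56, -2.05 and -1.22. These regulators of mitosis were higher by 0.86 (Foxm1) to 1.56 (Ccnb2), and the weeks overlapped in Plk1 alone.

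Cdc20 had -0.31, -0.30 and -1.39 at 4 weeks and 0.11, 0.87 and 1.24 at 8 weeks, and Ube2c -1.52, -1.16 and -1.43, then -0.95, -0.76 and 0.11. Birc5 had 0.25, -0.090 and -1.096, then 0.038, 1.23 and 2.19, Cdca8 -0.27, -0.89 and -1.25, then -0.45, 0.59 and 1.61, and Cenpa -1.47, -1.20 and -2.42, then -0.57, 0.40 and -0.24. Array A was the lowest of 8 weeks in each, within the range of 4 weeks for Birc5 and Cdca8, and the differences ran from 0.84 for Ube2c to 1.56 for Cenpa. Kif20a had -2.53, -2.34 and -2.81, then -2.34, -1.68 and -1.16, and Tpx2 -3.002, -3.34 and -3.84, then -2.90, -1.58 and -1.04, with array A again the lowest of 8 weeks. Kif2c had -5.71, -4.78 and -4.17 at 8 weeks, was not well above background at 4 weeks (-5.71, -6.23 and -6.63), and was at least 1.73-fold higher. Ttk was past the thresholds in the fit (-6.81, -7.68 and -7.77, then -6.48, -6.23 and -4.58), but 1 array alone, C of 8 weeks, was well above background. Tyms was the 1 member lower past the thresholds, with -0.97, -1.05 and -0.66, then -1.60, -1.50 and -1.39, a difference of -0.60 ± 0.20 (SE).

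These calls depended on single arrays. Without LDIR array A of 8 weeks 35 members passed, and without array C of 4 weeks 5 did, with 10, 9 and 10 without B of 8 weeks, C of 8 weeks and B of 4 weeks. Without the array rich in lymphocyte markers 9 were higher (Ccnb1, Ccnb2, Aurka, Bub1b, Ttk, Cdc20, Ube2c, Cenpa and Nusap1), against 4.87% of all probes. Tyms was lower, against 15.7%, and the median was 1.20, against -0.27 over all probes. Array A of 8 weeks was also the only LDIR array of that week on the slide of the 3 arrays of 4 weeks. Within that slide the median was 0.23, and with slide as a block 1 member passed. From 4 to 8 weeks in LDIR glands white adipocyte markers had mean levels of 6.81 to 7.55 and then 5.81 to 7.09, and basal epithelial markers 1.62 to 2.22 and then 2.499 to 3.83. Macrophage markers had 1.71 to 2.28 and then 1.20 to 1.70. Skeletal muscle markers had -4.27 to -3.70 and then 2.98, -4.29 and 5.31 on arrays A, B and C, and brown adipocyte markers -1.77 to -0.43 and then -0.35, -4.26 and -2.93. The remaining lists overlapped between these weeks on all arrays. Without array B of 8 weeks, rich in lymphocyte markers, luminal epithelial markers were 3.93 to 4.33, against 2.71 to 3.84 at 4 weeks. The part of any list was not tested.

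**Figure D3:**
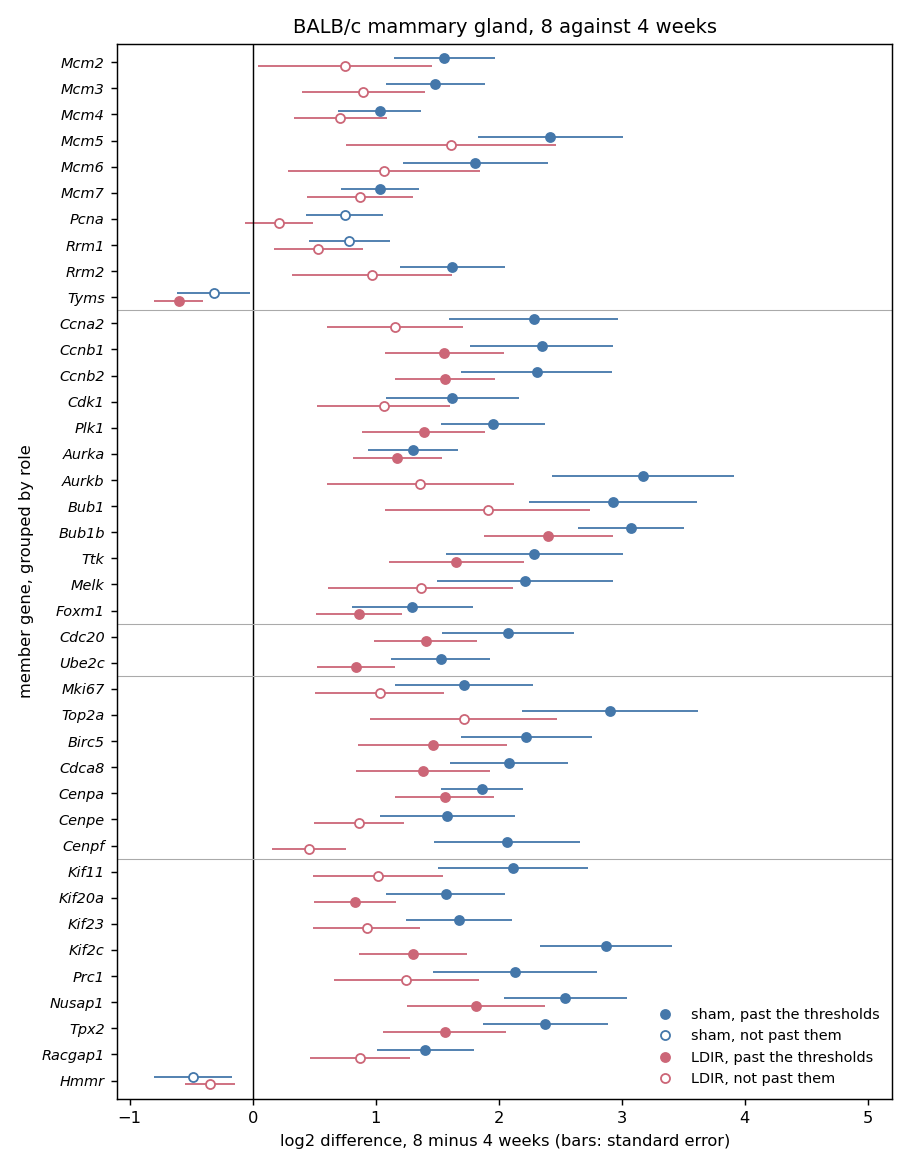
Log2 difference of each member between 8 and 4 weeks (x axis, with SE, 3 arrays against 3, or 2 against 3 for Mcm2 in LDIR glands) in sham (blue) and LDIR (red) BALB/c glands. Filled points passed the thresholds: 36 in sham glands, all to the right of 0, and 17 in LDIR glands, of which Tyms lies to the left.

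Between 2 and 4 weeks the sham BALB/c glands gave no member past the thresholds, against 3.04% of all probes. The median of the members was -0.30, against 0.01 over all probes. Below 0 lay 33 members and 26919 of 55681 probes. Cenpe had -0.29, -1.11 and -0.89 at 2 weeks against -1.85, -2.38 and -0.66 at 4 weeks (-0.87 ± 0.47, SE). Kif11 had -3.95, -4.32 and -4.89 at 2 weeks (-0.81 ± 0.41) and Ccnb1 -1.59, -2.39 and -2.22 (-0.81 ± 0.48, adjusted p of all 3 0.992). In each of them array C of 4 weeks lay within the range of 2 weeks. Without that array 12 members were lower at 4 weeks. It was also the 1 sham array of 4 weeks on another slide, and the other 2 against the 3 of 2 weeks had a median of -0.58, with 12 members past the thresholds once slide was a block.

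The next comparisons set LDIR against sham glands. At 2 weeks in BALB/c, Kif11, Melk and Mki67 were lower past the thresholds and no member was higher, against 0.876% of all probes lower. Kif11 had -3.95, -4.32 and -4.89 in sham and -4.71, -5.91 and -5.52 in LDIR glands (-0.996 ± 0.38, SE). Melk had -2.91, -3.58 and -3.23 against -4.29, -4.31 and -3.69 (-0.86 ± 0.26), and Mki67 1.06, 0.21 and 0.53 against -0.33, -0.38 and 0.32 (-0.73 ± 0.30, adjusted p of all 3 0.894). Only in Melk did all LDIR arrays lie below all sham arrays, and LDIR arrays B and C of Kif11 were not well above background. Over all members the median was -0.25, against 0.0044 over all probes. Below 0 lay 35 of 40 members and 27499 of 55681 probes.

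With the replicate letter as a block Melk (SE 0.23) and Kif11 (SE 0.24) passed and Mki67 did not (adjusted p of all 3 0.728). The second Mki67 probe gave -0.79 and did not pass. The number of members past the thresholds was 11 without LDIR array C, 5 without sham array C, and 1 without LDIR array B or sham array A. All 6 arrays of this week were on 1 slide.

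At 4 weeks in BALB/c no member passed, against 4.78% of all probes, and the median of the members was 0.04. Tyms had -1.40, -1.57 and -0.72 in sham and -0.97, -1.05 and -0.66 in LDIR glands (0.34 ± 0.27, SE). Aurka had -1.34, -1.50 and -1.77 in LDIR glands (-0.31 ± 0.23), and Hmmr 0.020, -0.20 and -0.21 (-0.30 ± 0.19, adjusted p of the 3 from 0.783 to 0.784). Each of these groups overlapped, and these were the largest differences among members with all 3 arrays of the brighter group well above background. Leaving out sham array C let 2 members pass and leaving out sham array B let 1. On slide 2, the 3 LDIR arrays against sham array C had a median of -0.47 with 7 members above 0, and with slide as a block 3 members passed.

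At 8 weeks in BALB/c 39 of the 40 lay below 0, as did 38422 of 55681 probes. The median was -0.67 against -0.14 over all probes, but sham and LDIR arrays overlapped in 39 members. Cenpf alone was lower past the thresholds, against 1.64% of all probes lower, at least 1.33-fold, with LDIR levels of -7.67, -7.61 and -6.70 that were not well above background on any array. Bub1 had -2.91, -3.17 and -1.49 in sham and -5.10, -3.29 and -2.42 in LDIR glands (-1.08 ± 0.80, SE). Ccna2 had -1.74, -1.12 and 0.23 in LDIR glands (-1.06 ± 0.69) and Kif2c -5.71, -4.78 and -4.17 (-1.01 ± 0.52, adjusted p of all 3 1). In each of these LDIR array A was lowest and array C lay among the sham arrays. Without sham array C or LDIR array A no member passed, and without sham array B or LDIR array C 2 did.

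Slides divided the groups at this week. Sham arrays A to C and LDIR array A were on slide 2, LDIR arrays B and C on slide 3. Within slide 2 that 1 LDIR array was below the mean of the 3 sham arrays in 40 of 40 members (median -1.67), all read from the same array. With slide as a block the LDIR difference rests on array A alone too, since slide 3 holds no sham array of this week. Without the 2 arrays of this week rich in lymphocyte markers the median was -0.89 and Cenpf did not pass. The 1 call was then Mcm2 (-1.91), whose LDIR arm is array A alone, since array C lost its Mcm2 spot as an outlier, so this is a value with no spread of its own.

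Taking the 3 weeks of BALB/c together, no member passed, against 1.08% of all probes. Below 0 lay 38 members and 32239 of 55681 probes (median -0.32, all probes -0.04). Without the arrays rich in lymphocyte markers the median was -0.32, against 0.02 over all probes, and no member passed. Mki67 had -0.46, 0.82 and 2.79 as the lowest, median and highest of 9 sham arrays and -0.67, 0.25 and 1.99 of 9 LDIR arrays (-0.53 ± 0.29, SE). The same values were -3.11, -1.32 and 1.31 against -2.65, -1.74 and 0.23 for Ccna2 (-0.53 ± 0.34) and -4.64, -2.91 and -0.24 against -4.46, -3.69 and -0.86 for Melk (-0.49 ± 0.39, adjusted p of all 3 0.997). Sham and LDIR arrays overlapped widely in each. Without sham array B of 4 weeks 4 members passed, without LDIR array C of 8 weeks 2 did, and with slide as a block 19 were lower. In that last fit sham array C of 4 weeks and LDIR array A of 8 weeks alone stand for their groups. A test of whether the LDIR difference varied with the week gave no member past adjusted p 0.05 (limma F test, adjusted p 1), and 1 member, Cenpf, at an unadjusted p under 0.05, against 3.68% of all probes.

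The strains were compared at 4 weeks, BALB/c minus SPRET/EiJ, at an unadjusted p under 0.001. In sham glands 4 members were higher in BALB/c, against 5.43% of all probes higher, and none was lower. Cdca8 had -0.90, -1.16 and -0.36 in BALB/c and -5.21, -5.12 and -4.70 in SPRET/EiJ (4.20 ± 0.27, SE, adjusted p = 0.000311). Pcna had 3.18, 2.93 and 2.76 against 1.07, 1.29 and 1.06 (1.82 ± 0.18, 3.52-fold, adjusted p = 0.00156). Rrm2 had -0.56, -0.71 and -0.60 against -2.54, -2.28 and -2.03 (1.66 ± 0.19, 3.16-fold, adjusted p = 0.00238). The strains were far apart in all 3, but the Cdca8 probe was well above background on 2 of the 6 SPRET/EiJ arrays, sham array C and LDIR array B, so its difference rests mostly on signals not well above background. Mcm4 had 1.75, 1.35 and 1.32 against 0.40, 0.39 and 0.29 (1.11 ± 0.18, 2.16-fold, adjusted p = 0.00913), without overlap.

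By adjusted p alone 6 members passed 0.05, against 18.7% of all probes. The other 2 were lower in BALB/c. Mcm7 had 1.92, 1.87 and 1.51 in BALB/c and 2.68, 3.22 and 2.95 in SPRET/EiJ (-1.18 ± 0.22, SE, adjusted p = 0.0136), and Plk1 -1.49, -1.84 and -0.95 against -0.0048, 0.0099 and 0.37 (-1.55 ± 0.27, adjusted p = 0.0114). So subunits of the same helicase, Mcm4 and Mcm7, lay on opposite sides, with 1 probe each. Probes of a single subunit could differ too: those of Mcm3 gave 0.46 and -0.41, neither past the thresholds. The median over the members was 0.35, against -0.063 over all probes. Above 0 lay 29 members and 25214 of 55681 probes.

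In LDIR glands, which are other arrays, Cdca8 and Pcna were higher in BALB/c, against 3.82% of all probes. Cdca8 had -0.27, -0.89 and -1.25 against -5.80, -4.37 and -6.40 (4.72 ± 0.55, SE, adjusted p = 0.00389, with 1 of the 3 SPRET/EiJ arrays well above background), and Pcna 3.32, 3.11 and 3.32 against 1.55, 1.30 and 1.09 (1.94 ± 0.23, 3.83-fold, adjusted p = 0.00408). Mcm7 was again lower in BALB/c, with 1.85, 1.44 and 1.22 against 3.19, 2.80 and 2.77 (-1.41 ± 0.27, adjusted p = 0.02). These 3 passed adjusted p 0.05, against 11.1% of all probes, and their strains did not overlap. Plk1 had -1.05, -1.44 and -2.09 against 1.37, -0.27 and 0.18 (-1.96 ± 0.49). Rrm2 had -0.16, -0.90 and -0.89 against 0.58, -2.13 and -0.92, a difference of 0.17, and Mcm4 a difference of 0.51, in both of which SPRET/EiJ LDIR array A, rich in lymphocyte markers, was far above B and C. Without that array 5 members passed adjusted p 0.05. The median over the members was -0.33, and 0.13 without it.

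A second Cdca8 probe gave a strain difference of 0.51 in sham and 0.06 in LDIR glands, in place of 4.20 and 4.72, while between 8 and 4 weeks in sham glands it gave 2.84. The probe used lies at chr4:124595809-124595868 and the second at chr4:124599245-124599304 on the minus strand of mm9, and whether the Mus spretus sequence differs under either was not tested. The Pcna probe of 60 bases is placed at chr2:132075022-132075054 on the minus strand of mm9, a stretch shorter than the probe. Pcna, Rrm2, Mcm4, Mcm7 and Plk1 have 1 probe each, under which a difference in sequence was not tested either. A strain difference in binding and one in transcript cannot be told apart there. All SPRET/EiJ arrays were on slide 3 and no BALB/c array of 4 weeks was, so slide and strain cannot be told apart within that week. Slide could enter a fit of all 24 arrays only through 2 BALB/c LDIR arrays of 8 weeks on slide 3, and the median of the members there was 2.17 in sham and 0.96 in LDIR glands.

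**Figure D4:**
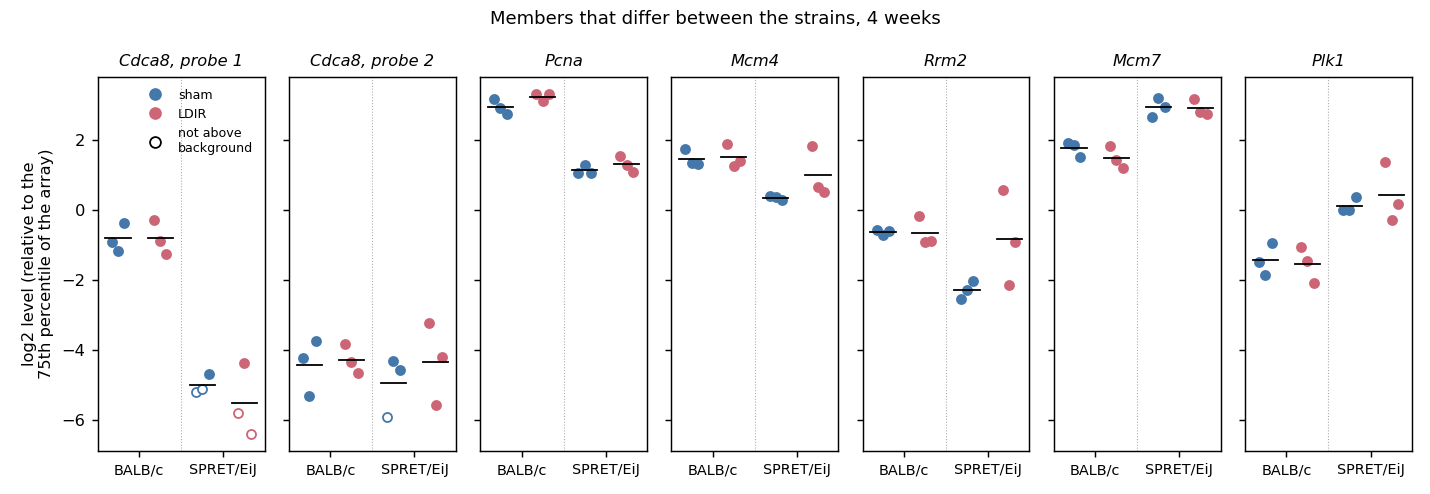
Log2 level on each array of 4 weeks (y axis, relative to the 75th percentile of the array) in BALB/c and SPRET/EiJ glands (x axis), sham and LDIR, for both Cdca8 probes and for Pcna, Mcm4, Rrm2, Mcm7 and Plk1. Lines are group means, open points were not well above background, and levels of different panels are not to be compared. Pcna lies higher in BALB/c and Mcm7 in SPRET/EiJ on every array, Cdca8 does so with the first probe (SPRET/EiJ sham -5.21, -5.12 and -4.70) and not the second, and Rrm2 overlaps through SPRET/EiJ LDIR array A (0.58).

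In SPRET/EiJ glands LDIR gave no member past the thresholds, against 2.2% of all probes. Above 0 lay 36 members and 30340 of 55681 probes (median 0.60, all probes 0.04). Rrm2 had -2.54, -2.28 and -2.03 in sham and 0.58, -2.13 and -0.92 in LDIR glands (1.46 ± 0.64, SE). Top2a had -4.42, -4.41 and -2.86 against -0.52, -4.05 and -2.78 (1.45 ± 0.90), and Kif23 -5.19, -5.58 and -3.98 against -2.50, -4.50 and -3.87 (1.29 ± 0.62, adjusted p of all 3 0.972). LDIR array A was highest in each, and B and C lay nearer the sham arrays. Without array A the median was 0.15 with 30 above 0. Without LDIR array B 12 members were higher and 1 lower past the thresholds, and without sham array C 1 passed.

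Whether LDIR moved the strains differently at 4 weeks was tested directly, and no member passed, against 3.53% of all probes. The median of this difference of differences, BALB/c minus SPRET/EiJ, was -0.58, and -0.11 without the array rich in lymphocyte markers. Among members well above background on the brighter side, its largest values were those of Rrm2 (-1.49 ± 0.75, SE), Top2a (-1.20 ± 1.20) and Cdk1 (-1.18 ± 0.82, adjusted p of all 3 0.957). Top2a had -3.22, -4.96 and -2.92 in sham and -2.74, -3.40 and -4.21 in LDIR BALB/c glands, and Cdk1 had -2.50, -2.67 and -1.89 against -2.20, -1.79 and -2.96, with -4.67, -3.48 and -2.90 in sham against -1.31, -3.52 and -2.57 in LDIR glands of SPRET/EiJ. In each gene SPRET/EiJ LDIR array A was the highest of its group and array B the lowest. Without SPRET/EiJ LDIR array B 6 members passed, and without SPRET/EiJ LDIR or sham array C 1 did.

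The members varied together within groups. After each group's mean was taken away, the median correlation over the 780 pairs of members was 0.69 on 24 arrays (range -0.17 to 0.97), 0.69 without the 3 arrays rich in lymphocyte markers, and 0.55 on the 12 BALB/c arrays of 2 and 4 weeks. Pairs share their arrays, so this is a description. Members on the same side of 0 in a comparison are likewise not independent of each other. The closest pairs without those 3 arrays were Mcm3 and Mcm4 (0.975), Ccna2 and Prc1 (0.972), and Ccnb1 and Cdc20 (0.965). On 24 arrays Nusap1 (median of its correlations 0.83), Birc5 (0.82) and Mki67 (0.82) were most like the other members, and Cenpf (0.038), Tyms (0.19), Cdca8 (0.41) and Pcna (0.46) least. This order changed without the 3 arrays, where Mki67 (0.87) and Prc1 (0.87) were highest, Tyms (0.33), Mcm2 (0.35), Pcna (0.42) and Cenpf (0.43) lowest, and Cdca8 had 0.56.

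Further probes were held for 12 members. Of these 15 other probes 14 were well above background on at least 3 arrays, and 12 of the 14 were higher at 8 than at 4 weeks in sham glands past the thresholds. The second probes of Cdk1 (0.10) and Tpx2 (1.1005) were not.

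Another 85 genes of the cell cycle on the array, none of them a member, were counted in the same way. From 4 to 8 weeks in sham glands 50 were higher and none was lower, with a median of 1.21. Of all 55681 probes 5.33% were higher and 4693 were lower. By phase they were 3 of 18 genes of G1 and the entry to S phase, 15 of 24 of S phase and 32 of 43 of G2 and mitosis. The 3 of G1 were E2f2 (1.90) and E2f8 (2.13), transcription factors of the E2F family, and Myc (1.04). Cdt1, which loads the helicase at origins, rose by 2.35. In the 12 genes of cell cycle exit and the DREAM complex none was higher and 1 was lower, against 4693 of 55681 probes lower. It was Tob1, an inhibitor of proliferation (-1.39 on the log2 scale). In LDIR glands 24 of the 85 were higher and 1 lower between the same weeks, against 3.79% higher and 18% lower of all probes. Btg2, an anti-proliferative gene induced by p53, was higher there by 2.26 and, at 8 weeks, higher in LDIR than in sham glands by 1.05 ± 0.29 (SE, adjusted p 1). Tob1, of the same exit list, went the other way at 4 weeks, lower in LDIR than in sham glands (-0.72 ± 0.15, SE, adjusted p = 0.666). Each was the 1 call among the 12, against 93 of 55681 probes higher at 8 weeks and 789 of 55679 lower at 4 weeks. These single calls are not read as a result about the exit list.

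Between strains the other genes differed both ways. Of the 85, 1 was higher in BALB/c and 3 were lower in sham glands, against 3023 and 1906 of 55681 probes. In LDIR glands 0 were higher and 4 lower, against 2128 and 1030 of 55680 probes. In sham glands Smc4, a condensin subunit, was higher in BALB/c (2.48), and Mcm10 (-2.04), Chaf1b (-1.997) and Cdc25b (-1.995) were lower. In LDIR glands Mcm10 (-1.92), Chaf1b (-2.52) and Cdc25b (-2.21) were lower in BALB/c too, with Dut (-1.31). For LDIR against sham, 0 to 2 of the 85 passed in each direction in each BALB/c week and in SPRET/EiJ, among them Hells (-0.62) at 2 weeks in BALB/c and Uhrf1 (1.39) in SPRET/EiJ, both chromatin factors of S phase. Of all probes, 0.876% were lower at 2 weeks and 1.64% at 8 weeks in BALB/c. In either direction 4.78% passed at 4 weeks in BALB/c and 2.2% in SPRET/EiJ. These few calls are not read as a result about the list.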

How the data were processed

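The arrays were 1-colour Agilent arrays of total RNA. The deposited scanner files came from Feature Extraction 10.10.1.1 and hold 62976 spots each, with probe positions on mm9. Per the file headers the processed signal is a background-subtracted intensity, and the authors also deposited log2 values normalized to the 75th percentile, which proved to be centred on each probe's median over the arrays and served as an alternative. Here, log2 of the processed signal minus the array's 75th percentile was taken over 59305 spots that were not controls. The 3777 spots marked as outliers were left out, no spot was saturated, and spots were averaged over each of 55681 probes.

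Each comparison was fitted on its own arrays with limma 3.58.1 (R 4.3.3). A call took an unadjusted p under 0.05 (0.001 between strains) and over 1.5-fold, the thresholds of the study's methods, and Benjamini-Hochberg adjustment ran over all probes. An exact permutation test of 3 arrays against 3 cannot go below 0.1 and was not used. A probe not well above background on any array of the dimmer group is given as "at least", the brighter group's mean against the lowest well-measured signal of each array or the probe's own, whichever was higher. Values by array are given for members past the thresholds and for the 3 with the largest difference in each comparison among those well above background in the higher group. The members, gene lists and 12 marker lists were chosen with earlier results of these data known. The procedure was tested on simulated data, and figures were drawn with matplotlib 3.10.9. The number of arrays limits the precision.

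Replicate letters were checked as pairs by correlating deviations from group means. At 2 weeks they were 0.14, 0.44 and 0.10 over probes well above background, so the letter as a block is given there; at 8 weeks they were -0.56, -0.57 and 0.54. As alternatives, the deposited log2 values were used, background was corrected with normexp (offset 50), and quantile normalization replaced the percentile. Others were outlier spots kept, a filter on dim probes, the mean of all probes of a gene, a fit of all 24 arrays, the methods' t-test, replicate and slide blocks, and leaving out each array. Fits without the 3 arrays rich in lymphocyte markers, and of all arrays with slide as a block, were added after the values were seen.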

Additional observations from a re-analysis of the deposited data

How the results depend on the processing

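With 3 arrays a group, single arrays and the slide decide many counts. Except where a share of all probes stands beside them, counts from alternative fits, here and above, lack that share. Such counts show how far the calls moved and are not read as a result about the members. With slide in the fit, BALB/c differences between 4 and 8 weeks rest on 1 array of a group. So do LDIR differences at 4 or 8 weeks in BALB/c. The array is sham C of 4 weeks or LDIR A of 8 weeks. The 36 members higher from 4 to 8 weeks in sham BALB/c glands became 25 to 38 past the thresholds when 1 array was left out, 7 higher with slide as a block, and 19 with slide in a fit of all arrays, of which 18 were higher and 1 lower. That last fit dropped Mcm2, whose levels lost an outlier spot. The median of 1.91 became 1.21 under normexp correction, 1.31 with slide as a block and 1.30 with slide in the fit of all arrays. For LDIR glands between the same weeks the 17 members became 5 to 35 when 1 array was left out, 11 under normexp correction, 6 by the methods' t-test, 11 with the replicate block, 1 with slide as a block (higher), 1 in the joint fit with slide (lower, with none higher), and 10 when the arrays rich in lymphocyte markers were left out. Its median became 0.23 with slide as a block and 0.24 with slide in the fit of all arrays.

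For LDIR against sham at 2 weeks the 3 members became 1 under normexp correction, 1 under quantile normalization, 1 by the methods' t-test, 0 in the fit of all arrays with or without slide, and 1 to 11 when 1 array was left out. At 4 weeks the count of 0 became 3 with slide as a block and 0 to 2 when 1 array was left out, and the median became -0.47 with slide as a block and in the fit of all arrays with slide. At 8 weeks the count of 1 became 0 under normexp correction, 0 under the filter on dim probes, 0 by the methods' t-test, 3 with the replicate block, 12 with slide as a block, 27 with slide in the fit of all arrays and 0 to 2 when 1 array was left out, and the median became -1.67 in both slide fits. Over the 3 weeks the count of 0 became 1 with the replicate block, 19 with slide as a block, 18 with slide in the fit of all arrays and 0 to 4 when 1 array was left out.

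In SPRET/EiJ the count of 0 became 1 under normexp correction, 1 with the mean of all probes, 2 in the fit of all arrays with or without slide, and 0 to 13 when 1 array was left out. The interaction of strain and LDIR became 1 under normexp correction, with slide as a block and in the fit of all arrays with or without slide, and 0 to 6 when 1 array was left out, with medians of -1.14 and -1.22 in the 2 slide fits. Between 2 and 4 weeks in sham glands the count of 0 became 1 under quantile normalization, 12 with slide as a block, 2 with slide in the fit of all arrays, and 0 to 12 when 1 array was left out.

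The strain difference in sham glands fell to 2 members in the fit of all arrays, with or without slide, and its median became 2.17 with slide. In LDIR glands it was 1 member by the methods' t-test and 4 in the fit of all arrays, with a median of 0.96 with slide. Single genes that passed kept their direction in 879 fits past the thresholds and 237 below them. The other 3 fits, all under normexp correction and all of dim probes, reversed: Cenpf from 4 to 8 weeks in sham glands (-0.077), and Ttk (-0.10) and Kif2c (-0.087) in LDIR glands. The cause of these changes was not tested. The replicate block changed no other count by over 1.5 times.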
